A study of Mus musculus with 4 samples.

Results

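The genes examined here encode the protein arginine methyltransferases (PRMTs) and the 2 cofactors that work with PRMT5, 10 genes in all, followed in tumour cells that were kept for 5 days with a type I PRMT inhibitor. They were taken by gene symbol from the deposited table: Prmt1, Prmt2, Prmt3, Carm1, Prmt6, Prmt5, Prmt9, Prmt7, Wdr77 and Clns1a. All 10 had values, out of 12578 genes with values and 51826 genes listed. Another family member, Prmt8, was listed without values. The cells were MC38/gp100, a mouse cancer line. The MC38 line was derived from a mouse colon tumour, and the gp100 of its name is a pigment cell protein whose mouse gene is Pmel. The 2 groups were 2 libraries after 1 µM GSK3368712 for 5 days and 2 libraries after DMSO, the solvent, for 5 days. Both groups thus share the line and the culture time, and differ by the compound. The libraries are called A and B after the letters of the table's columns. Separate cultures are not named in the labels for libraries of one group, and p-values then measure the spread between these libraries, which may be technical.

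PRMTs move a methyl group from S-adenosylmethionine to the side chain of arginine, and the type of an enzyme names its product. Type I enzymes make asymmetric dimethylarginine, type II enzymes make symmetric dimethylarginine, and the type III enzyme PRMT7 stops at the first methyl group. Their substrates include histones, RNA-binding proteins and the Sm proteins of the spliceosome. GSK3368712 is a type I inhibitor that acts on the enzymes' activity. The comparison asks whether transcripts of the type I enzymes, their type II and III relatives and the PRMT5 cofactors differ after prolonged treatment. Protein amounts and methylation were not measured in the table used here.

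The 10 genes held few reads. Whole reads per library were worked back from the deposited base means, the means over the 4 libraries of reads divided by a size factor. Reads at all genes with values came to between 1080150 and 1175335 per library. The 10 genes together took 627 and 679 of these in the inhibitor libraries, against 707 and 607 in the DMSO libraries, or 0.0562% to 0.0607% of a library. In the labelled line, the mesenchymal marker Vim had 2178 to 2311 normalised reads with the inhibitor, against 1572 to 1623 in DMSO. The 5 fibroblast markers summed to 1446 to 1613 with the inhibitor and 1092 to 1100 in DMSO, a sum made up mostly of the collagens Col1a1, Col1a2 and Col3a1. Pdgfra went the other way, with 42.2 and 53.1 normalised reads with the inhibitor, against 65.5 and 72.0 in DMSO (log2 fold change -0.53; limma, adjusted p = 0.233), and Pdgfrb was at 0.15 on the log2 scale. Vim (limma, adjusted p = 0.0319) and, of the fibroblast markers, Col3a1 alone (limma, adjusted p = 1.5e-07) passed an adjusted p of 0.05. The epithelial markers were low: 3 of 5 had values and summed to 19.0 to 22.6 normalised reads over the 4 libraries, while Krt18 and Epcam were listed without values. Pmel had 27.8 and 35.1 normalised reads with the inhibitor, against 25.1 and 33.4 in DMSO, and Mlana, Tyr and Dct were listed without values. Of the 4 leukocyte markers Cd68 alone had values, 5.01 to 8.23 normalised reads with the inhibitor and 8.07 to 14.6 in DMSO. The 2 endothelial markers with values, of 3, summed to 2.00 to 6.17 with the inhibitor and 0.897 to 2.09 in DMSO. How far the differences in Vim, the collagens and Pdgfra bear on the values below was not tested.

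None of the 10 genes was called as changed with the inhibitor by the test used. In limma on the deposited log2 values, 0 of 10 passed an adjusted p of 0.05, against 2.14% of the 8562 tested genes. That is 0 higher, against 1.3% of tested genes, and 0 lower, against 0.841%. The adjusted p of the 10 ranged from 0.503 to 0.978. No gene reached an unadjusted p of 0.05 either, a level that 12.2% of tested genes reached. In the authors' deposited table, none of the 10 had an unadjusted p under 0.05, which 2.25% of all genes with values had. There the 5 genes with an adjusted p (Prmt1, Carm1, Prmt6, Prmt5 and Prmt7) all stood at 0.9997, where 0.574% of the 4527 genes with one passed. Log2 fold changes, taken from limma on recovered reads plus 1 while the adjusted p comes from the deposited values, were positive in 5 genes and negative in 5, with a median log2 fold change of 0.06, beside 0.01 over all tested genes. In 4 genes, Carm1, Prmt5, Wdr77 and Clns1a, the inhibitor libraries lay on 1 side of both DMSO libraries; such separation held for 41.2% of tested genes, a share close to the 4 of 10 seen here. In bulk RNA, fewer cells making a transcript and less RNA per cell cannot be told apart.

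**Figure D1:**
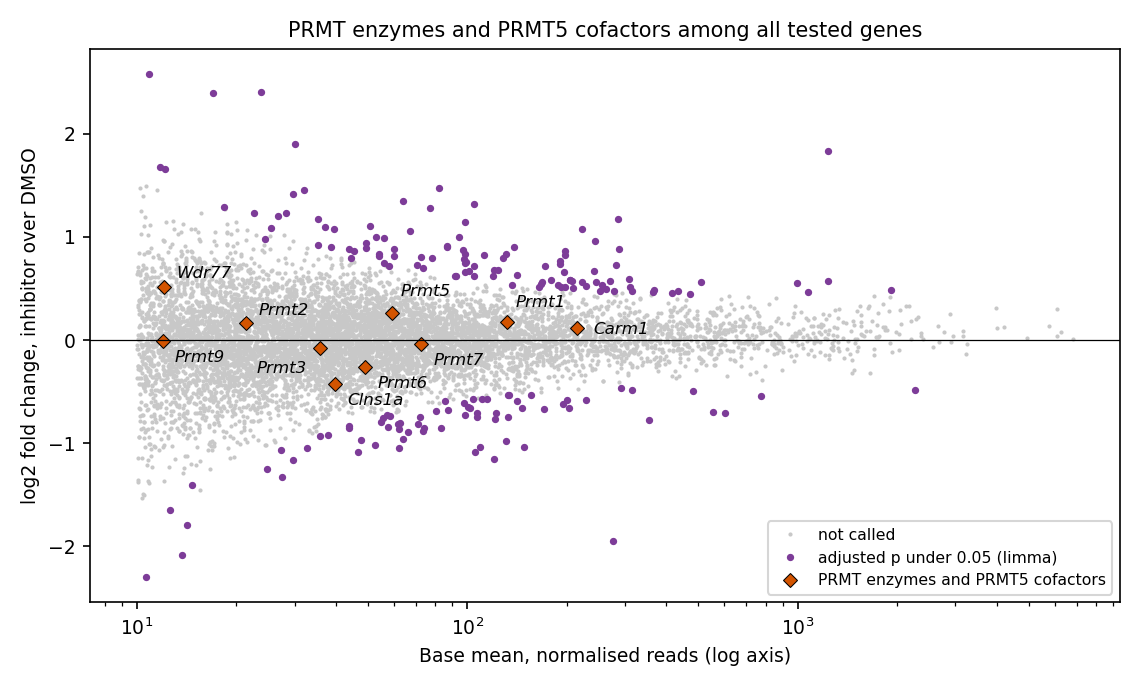
Log2 fold change of inhibitor over DMSO (recovered reads plus 1, vertical axis) against the base mean in normalised reads (log axis) for 8559 tested genes, with genes called by limma in purple and the 10 PRMT enzymes and cofactors as orange diamonds. All 10 diamonds lie within the grey cloud of genes that were not called, between -0.43 and 0.52.

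Among the type I genes, Prmt1 encodes the enzyme that makes most of the asymmetric dimethylarginine of mammalian cells and is a main target of type I inhibitors. The gene (ENSMUSG00000109324.1, mm10 chr7:44975989-44986568, minus strand) was given 130 and 147 reads in inhibitor libraries A and B, against 150 and 109 reads in DMSO libraries A and B. Divided by the size factors these were 134 and 147 with the inhibitor, against 135 and 114 in DMSO. Inhibitor B was the highest and DMSO B the lowest, while inhibitor A and DMSO A were almost level, so the groups overlapped. Prmt1 averaged 140 ± 9.53 normalised reads with the inhibitor and 124 ± 14.7 in DMSO (SD, n = 2 each), and its log2 fold change was 0.18 with an SE of 0.16 (limma, adjusted p = 0.746). It was 0.06 without DMSO B and 0.30 without DMSO A. The 95% interval of that difference ran from -0.14 to 0.50 on the log2 scale, a fold of 0.910 to 1.41. From counting error alone, the 277 reads of the inhibitor group and 259 of the DMSO group have a ratio of 1.12 after scaling, with an exact binomial (Clopper-Pearson) interval of 0.946 to 1.34.

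Carm1, also known as PRMT4, is a coactivator of nuclear receptors that methylates histone H3 and transcription and splicing proteins. It lies at mm10 chr9:21546894-21592623 on the plus strand (ENSMUSG00000032185.15) and had the most reads of the 10 genes. Its normalised reads were 216 and 231 with the inhibitor, against 207 and 204 in DMSO. Both inhibitor libraries were the higher ones, by a margin smaller than the gap between them. The means were 224 ± 10.8 with the inhibitor and 205 ± 2.61 in DMSO (SD, n = 2 each), and the log2 fold change was 0.12 ± 0.14 (limma, adjusted p = 0.823; 95% interval -0.16 to 0.41). Carm1 thus has the narrowest interval of the 10 genes.

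The other type I genes had fewer reads and more scatter. Prmt6, whose product methylates histone H3 (ENSMUSG00000049300.11, mm10 chr3:110246109-110250998, minus strand), had 35.0 and 55.1 normalised reads with the inhibitor, against 51.1 and 54.3 in DMSO. Inhibitor A alone was low, and inhibitor B lay above both DMSO libraries. The log2 fold change was -0.26 ± 0.23 (limma, adjusted p = 0.782; 95% interval -0.71 to 0.20), and without inhibitor A it was 0.06. Prmt3, a cytosolic enzyme with a zinc finger that methylates the ribosomal protein Rps2 (ENSMUSG00000030505.17, mm10 chr7:49778346-49858265, plus strand), had 41.2 and 28.0 normalised reads with the inhibitor, against 28.7 and 44.9 in DMSO. Each group held a high and a low library, and the groups overlapped fully (-0.08 ± 0.27 on the log2 scale; limma, adjusted p = 0.951; 95% interval -0.60 to 0.45). Without inhibitor B the log2 fold change was 0.19, and without DMSO B it was 0.24. Prmt2, a weakly active enzyme with an SH3 domain (ENSMUSG00000020230.15, mm10 chr10:76207222-76237865, minus strand), had 27.8 and 18.0 normalised reads with the inhibitor, against 18.8 and 20.9 in DMSO. Inhibitor A was high and inhibitor B was the lowest of the 4, and the log2 fold change of 0.17 ± 0.34 (limma, adjusted p = 0.902; 95% interval -0.50 to 0.83) was -0.13 without inhibitor A.

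**Figure D2:**
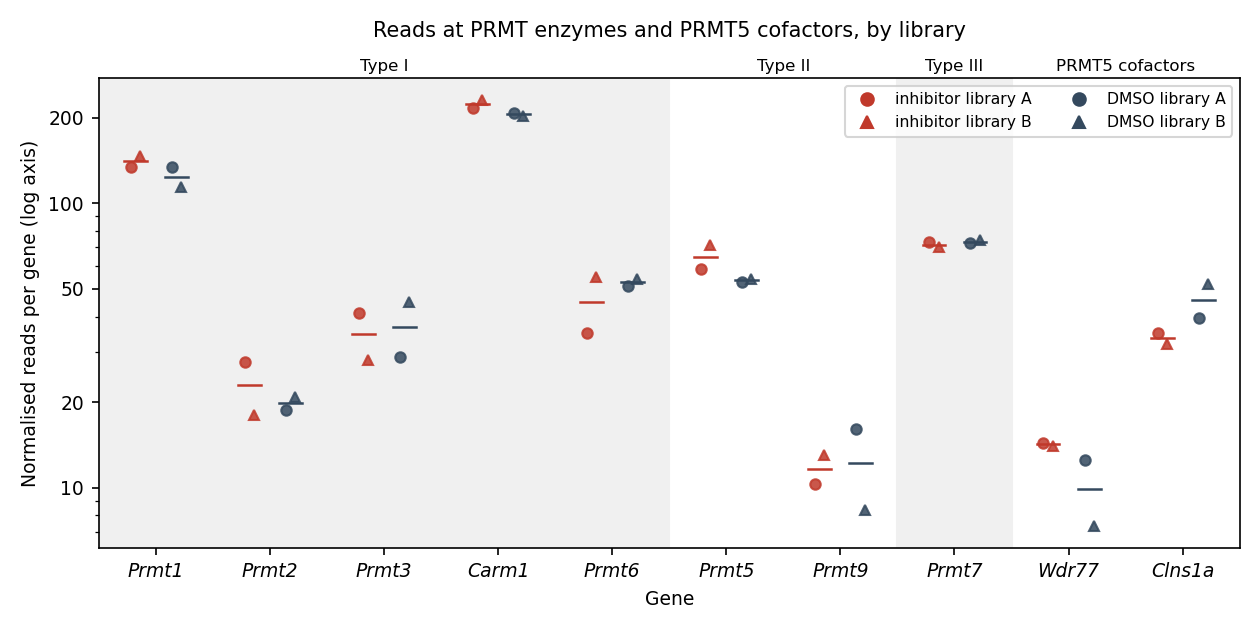
Normalised reads per gene (log axis) in each library, inhibitor libraries in red left of DMSO libraries in dark blue, circles for A and triangles for B, short lines for the mean of 2 libraries. The groups overlap in 6 of the 10 genes; the inhibitor libraries are both higher for Carm1, Prmt5 and Wdr77 and both lower for Clns1a.

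Type II enzymes were not called either. Prmt5, which makes most of the symmetric dimethylarginine in cells (ENSMUSG00000023110.12, mm10 chr14:54507187-54517525, minus strand), was given 57 and 71 reads with the inhibitor, against 59 and 52 in DMSO. Its normalised reads were 58.6 and 71.1 with the inhibitor, against 52.9 and 54.3 in DMSO. Both inhibitor libraries were higher, inhibitor B by the larger margin. The means of 64.9 ± 8.81 with the inhibitor and 53.6 ± 0.952 in DMSO (SD, n = 2 each) gave a log2 difference of 0.26 ± 0.21 (limma, adjusted p = 0.685). The 95% interval ran from -0.15 to 0.68, or 0.903-fold to 1.6-fold, and leaving out each library in turn gave log2 fold changes from 0.13 to 0.40. Prmt9, which methylates the splicing factor Sf3b2 (ENSMUSG00000037134.17, mm10 chr8:77549397-77581338, plus strand), was given only 10 and 13 reads with the inhibitor, against 18 and 8 in DMSO. Its normalised reads were 10.3 and 13.0 with the inhibitor, against 16.1 and 8.35 in DMSO. Both the highest and the lowest value were in DMSO. The log2 difference of Prmt9 was -0.01 ± 0.45 (limma, adjusted p = 0.978). Its 95% interval of -0.91 to 0.89 included changes of nearly 2-fold in either direction.

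The type III enzyme gene Prmt7 (ENSMUSG00000060098.11, mm10 chr8:106210936-106252794, plus strand) was the steadiest of the 10. It had 73.0 and 70.1 normalised reads with the inhibitor, against 72.7 and 74.1 in DMSO. The 4 values lay within a few reads of each other and the groups overlapped. On the log2 scale the change was -0.04 ± 0.19 (limma, adjusted p = 0.973; 95% interval -0.41 to 0.34), and it stayed between -0.07 and -0.01 in all 14 alternatives computed for Prmt7.

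The PRMT5 cofactors differed in sign. Wdr77, also called MEP50, is the WD-repeat partner that presents substrates to PRMT5 (ENSMUSG00000000561.14, mm10 chr3:105959369-105970037, plus strand). It was given 14 and 14 reads with the inhibitor, against 14 and 7 in DMSO. Its normalised reads were 14.4 and 14 with the inhibitor, against 12.6 and 7.31 in DMSO. DMSO B was low, and DMSO A lay just under the inhibitor libraries. The means were 14.2 ± 0.271 with the inhibitor and 9.93 ± 3.71 in DMSO (SD, n = 2 each). This gene had the highest log2 fold change of the 10, 0.52 ± 0.45 (limma, adjusted p = 0.751), with the widest interval but for that of Prmt9 (-0.37 to 1.41), and without DMSO B the log2 fold change was 0.17, and without DMSO A it was 0.87. Clns1a encodes pICln, which brings Sm proteins to PRMT5 (ENSMUSG00000025439.5, mm10 chr7:97696634-97720796, plus strand). Its reads were 34 and 32 with the inhibitor, against 44 and 50 in DMSO, or 35.0 and 32.0 normalised reads with the inhibitor against 39.5 and 52.2 in DMSO. Both inhibitor libraries were lower. Clns1a averaged 33.5 ± 2.07 with the inhibitor and 45.8 ± 8.99 in DMSO (SD, n = 2 each). The log2 fold change of -0.43 ± 0.25 had the lowest adjusted p of the 10 (limma, 0.503). The 95% interval of -0.92 to 0.07 and the counting interval of the ratio, 0.531 to 1.02, both included no change. The log2 fold change of Clns1a stayed negative in all 13 alternatives computed for it, from -0.63 to -0.23, and its lowest adjusted p among them was 0.370 (limma, without DMSO A). A test of Wdr77 against Clns1a was not made.

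**Figure D3:**
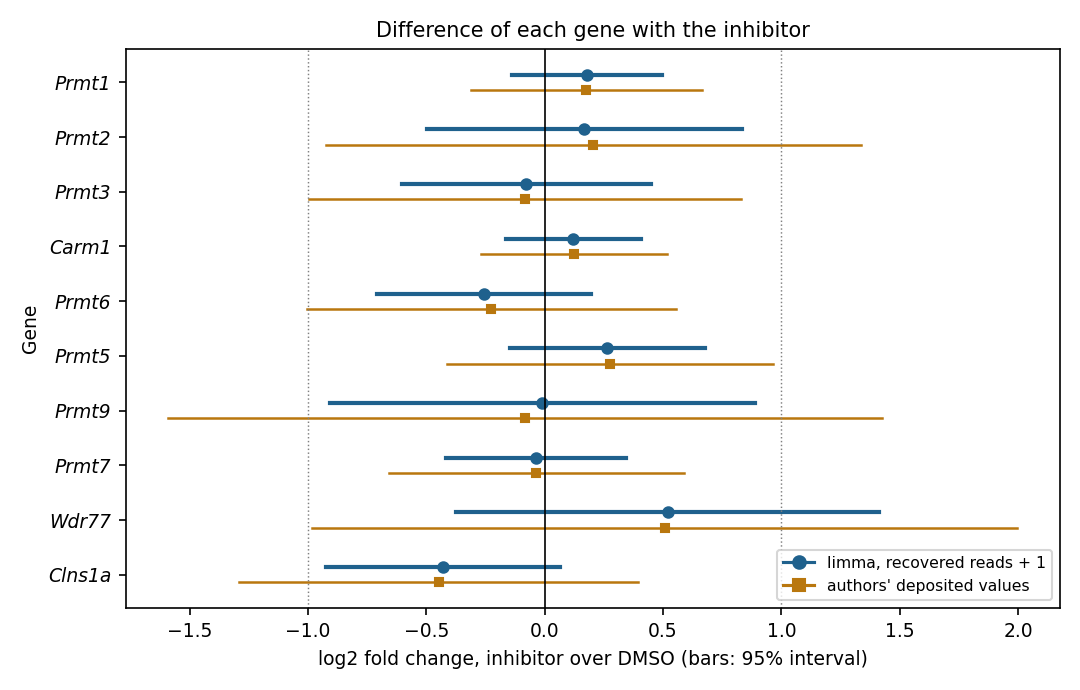
Log2 fold change of inhibitor over DMSO for each gene with 95% intervals: in blue limma on recovered reads plus 1, in orange the authors' deposited fold change with an interval from its deposited standard error. Every interval crosses 0, and dotted lines mark a 2-fold change either way; the blue intervals of 9 genes lie inside those lines and that of Wdr77 does not.

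The size of change that could be called at these depths bounds what the result can say. Of 1369 tested genes with a base mean of 100 to 300, the range of Prmt1 and Carm1, 71 were called (5.19%), and the smallest absolute log2 fold change among them was 0.46, a 1.38-fold change. From 30 to 100, the range of Prmt5, Prmt7, Prmt6, Clns1a and Prmt3, 70 of 3406 were called (2.06%), the smallest at 0.59. From 10 to 30, the range of Prmt2, Wdr77 and Prmt9, 21 of 3115 were called (0.674%), none under 0.98. No smaller change was called within these ranges, so the absence of calls does not show that the transcript levels stayed the same. Members with few reads for their range may need larger changes than these to be called. From 10 to 30 the median SE was 0.37, against 0.45 for Wdr77 and Prmt9 and 0.34 for Prmt2. From 30 to 100 it was 0.22, and the members ran from 0.19 for Prmt7 to 0.27 for Prmt3. The authors' deposited fold changes had the same sign as those of recovered reads in 10 of 10 genes and wider errors, from 0.20 for Carm1 to 0.77 for Prmt9 on the log2 scale.

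Ordered by level, in normalised reads per kb of exon, the means spanned 21-fold. Carm1 led with a mean of 44.2 reads per kb over the 4 libraries, followed by Prmt1 with 38.6, and the ranges of these genes over the libraries overlapped (42.0 to 47.7 for Carm1, 33.2 to 43.0 for Prmt1). Prmt5 came next at 15 (13.4 to 18.0), clear of Prmt1 above it and of Prmt7 and Prmt6 below it, while the highest library of Clns1a (13.5, DMSO B) lay just above the lowest of Prmt5. Prmt7 (11.8) overlapped with Prmt6 (11.6), and Prmt6 with Clns1a (10.3). Prmt2 (6.32) and Prmt3 (5.95) overlapped with each other and lay below Clns1a, and Wdr77 (2.49) and Prmt9 (2.1) overlapped with each other at the bottom, below the range of Prmt3. Carm1, Prmt1 and Prmt5 held the first 3 places in both groups, and further down Prmt7 with Prmt6, Prmt2 with Prmt3 and Wdr77 with Prmt9 exchanged places between the groups. Among all genes with a length, 90.3% had a lower level than Carm1 and 30.9% a lower level than Prmt9, around a median of 4.96 reads per kb. Wdr77 and Prmt9 were therefore the only genes of the 10 whose mean was under that median. Lengths are unions of exons in GENCODE M21, which may not be the annotation the authors counted on. The levels also rest on the strand setting of that counting, which is not known.

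**Figure D4:**
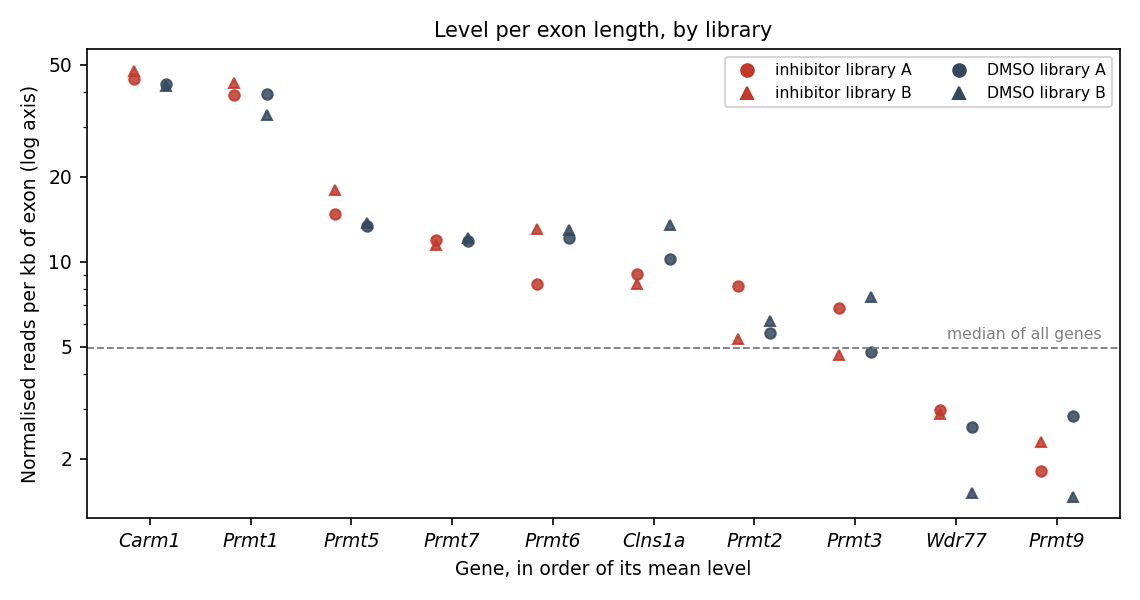
Normalised reads per kb of exon (log axis) for the 10 genes in order of their mean, inhibitor libraries in red left of DMSO libraries in dark blue, circles for A and triangles for B, with a dashed line at the median of all genes. Carm1 and Prmt1 stand above the rest in all 4 libraries, and Wdr77 and Prmt9 lie under the median of 4.96.

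Split by type, the composition of the enzyme transcripts was nearly constant. The 5 type I genes made up 78.9% and 78.2% of the summed reads per kb of the 8 enzyme genes with the inhibitor, against 78.8% and 78.9% in DMSO. For the type II genes the shares were 12.3% and 13.9% with the inhibitor, against 12.2% and 11.8% in DMSO. Prmt7 held 8.80% and 7.87% with the inhibitor, against 8.95% and 9.38% in DMSO. Only inhibitor B stood a little apart, with the highest type II share and the lowest of the other 2 types. The sum itself was 136 and 146 reads per kb with the inhibitor, against 133 and 129 in DMSO. Carm1 shares exon sequence with a gene on the other strand that was given far more reads. Without Carm1, the type I share was 68.6% and 67.6% with the inhibitor, against 68.8% and 68.7% in DMSO. These sums are descriptions and were given no test.

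Where the genes lie bears on whose reads were counted, because no source used here gives the strand setting with which the authors counted. Without it, reads in a stretch shared by genes on opposite strands cannot be assigned. Of the 12570 genes matched to GENCODE M21, 33.6% have an exon that overlaps an exon of the other strand, and these hold 59.4% of the base-mean total. Among the 10 genes, 6 have such an overlap. Prmt1, Prmt5, Prmt9 and Prmt2 have none. Exons of Carm1 share 1025 of their 4852 bp with Yipf2, a Golgi membrane protein gene, which was given 2270 and 2065 normalised reads with the inhibitor, against 1801 and 2081 in DMSO. Per kb, Yipf2 stood at 828 to 1044 over the 4 libraries, far above the 42.0 to 47.7 of Carm1. It was not called (log2 fold change 0.16 ± 0.14; limma, adjusted p = 0.729). The 337 bp that Wdr77 shares with Atp5f1, a subunit gene of the mitochondrial ATP synthase, face a similar gap in level, since Atp5f1 had 211 to 257 reads per kb. Atp5f1 was not called either (log2 fold change 0.07 ± 0.13; limma, adjusted p = 0.911). On its own strand, Wdr77 also shares 1389 bp with Gm42890, which had no values. The values of Carm1 and Wdr77, and their places in the order of levels, are uncertain to that extent. Since the setting is unknown for all genes, it cannot be told from which strand the counted reads came. The levels, order, type shares and fold changes of the 10 all rest on that. This includes the genes without an overlap, and the effect of the setting was not tested. Prmt6 shares 984 bp with the antisense gene C130013H08Rik, Prmt3 144 bp with Gm26856 and Clns1a 121 bp with Rsf1os2, none of which had values.

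Prmt7 shares 247 bp with Smpd3, which encodes a neutral sphingomyelinase, and 21 bp with Gm26786. Smpd3 was the one neighbour with a call: its normalised reads were 67.9 and 62.1 with the inhibitor, against 27.8 and 39.7 in DMSO. Both inhibitor libraries were well above both DMSO libraries. The means of 65.0 ± 4.11 with the inhibitor and 33.7 ± 8.38 in DMSO (SD, n = 2 each) gave a log2 difference of 0.95 ± 0.23 (limma, adjusted p = 0.00717). The log2 difference was 0.88 without inhibitor A (limma, adjusted p = 0.177), 0.70 without DMSO A (limma, adjusted p = 0.201) and 0.95 with no abundance minimum (limma, adjusted p = 0.193), so the size stayed similar while the call was lost. With 1 library left in a group, that library is assumed to vary like those of the other group. The authors' deposited table gives an adjusted p of 0.572. Prmt7, on the other strand, had a log2 fold change of -0.04. Whether reads at Smpd3 came from Prmt7 or the reverse cannot be told from the table.

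The promoters of the genes were also compared, taking 250 bases before to 50 after each start from RefSeq (GRCm38.p6). For 9 of the 10 genes a promoter was matched, and Carm1 had no entry. The observed over expected CpG ratio of the 9 ran from 0.637 for Prmt5 to 1.07 for Prmt7, with a median of 0.738 against 0.384 over 32851 promoters. The motif CACGTG, the palindromic E-box read by MYC, MAX and USF factors, occurred in 4 of the 9, and in 7.15% of all promoters. Like the ETS and GC box motifs below, it holds a CpG, so shares over all promoters are not a matched background. Shares among promoters of like CpG ratio were not computed. The E-box is shown here for 2 enzyme genes and both cofactor genes, in capitals within 30 bases read 5′ to 3′ on the strand of each gene.
Prmt1 (chr7:44986584-44986613, minus strand): acccaatcgtcaCACGTGctgggtgagaca
Prmt3 (chr7:49778333-49778362, plus strand): gccccctacgccCACGTGacccggaagcgc
Wdr77 (chr3:105959495-105959524, plus strand): gcagaggtacacCACGTGtgcggtccctcc
Clns1a (chr7:97696531-97696560, plus strand): gggaaccgatgcCACGTGacaaaagccagc
Of the 4 genes, Prmt1 and Wdr77 had positive and Prmt3 and Clns1a negative log2 fold changes with the inhibitor, and none was called. On either strand, CCGGAAG, the ETS motif, was found in 3 of the 9 (Prmt2, Prmt3 and Clns1a; 8.86% of all promoters), GGGCGG, the GC box, in 5 (35.7%), CCAAT in 4 (37.4%) and TATAAA in Prmt2 alone (13.6%). The NRF1 motif was in none of the 9 (0.971% of all promoters). The motifs were searched separately and may overlap, and CACGTG was chosen for display after these counts were seen. A match describes the letters and does not show that a factor binds.

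Other genes of arginine methylation were not called either. A list of 28 such genes held 26 with values and 22 with enough reads to test, and 0 of 22 passed in either direction in limma, against 2.14% of all tested genes. An unadjusted p under 0.05 was reached by 1 of 22, against 12.2% of all tested genes, and none passed in the authors' deposited table. Their median log2 fold change was 0.05, beside 0.01 over all tested genes, and 13 of 22 were positive, against 50.8% of all tested genes. The largest in size was that of Padi2, a peptidylarginine deiminase that turns arginine into citrulline, with 9.15 ± 1.61 normalised reads under the inhibitor and 17.7 ± 2.88 in DMSO (SD, n = 2 each; log2 fold change -0.88 ± 0.43; limma, adjusted p = 0.363), the gene with the unadjusted p of 0.0368. Next was Mat2b, the regulatory subunit of methionine adenosyltransferase, which makes S-adenosylmethionine, with 28.8 ± 8.78 and 19.3 ± 8.20 normalised reads in inhibitor and DMSO libraries (0.59 ± 0.33; limma, adjusted p = 0.476).

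By role, the other PRMT5 adaptors and arginine methyltransferases had 0 of 3 tested genes called. Riok1, the adaptor that competes with pICln for PRMT5, stood at -0.48 ± 0.25 on the log2 scale (limma, adjusted p = 0.432). Coprs and Mettl23, also tested, stood at 0.03 ± 0.44 and -0.03 ± 0.17. None of 3 partners of PRMT1 or PRMT3 passed, with Chtop, a chromatin and mRNA export protein methylated by PRMT1, at 0.27 ± 0.17. Tudor-domain readers of methylated arginine had 0 of 5 called, and Smn1, the survival motor neuron gene whose product binds symmetrically methylated Sm proteins, had 0.53 ± 0.27 (limma, adjusted p = 0.475). Enzymes acting on arginine or free methylarginine had 0 of 3 called, among them Jmjd6 at -0.29 ± 0.19. In methyl donor supply and product removal 0 of 4 were called. The Sm and LSm genes that encode PRMT5 substrates (Snrpb, Snrpd1, Snrpd3 and Lsm4) had 0 of 4 called, with log2 fold changes from -0.21 to 0.11. Mtap is a gene whose loss sensitises tumour cells to PRMT5 inhibition. It was given 179 ± 0.178 normalised reads with the inhibitor and 155 ± 39.4 in DMSO (SD, n = 2 each). Another gene, 2810459M11Rik, had the same base mean (167.16), log2 fold change (0.229) and SE (0.154) as Mtap. Whether these reads came from Mtap was not tested, so they do not show that the line expresses it.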

How the data were processed

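Libraries came from a kit for stranded mRNA, per the labels' protocols. The submitters' processing notes name mm10 as the authors' build, and HISAT2 2.1.0, SAMtools 1.2, StringTie 1.3.0 and DESeq2 as the authors' tools. Their roles and the strand setting of counting are not stated. The authors deposited 1 table: log2 values per library (logCPM per the file headers) whose group differences are pulled toward 0 at low depth, the base mean (a normalised signal), and DESeq2's log2 fold change, error, test score, p-value and adjusted p-value.

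Size factors and whole reads per library were solved from the 15 digits of the base means, with a single solution for 12575 genes, the 10 included. The replicate chi-square per gene with at least 20 reads was 1.47 in the inhibitor group and 1.94 in DMSO, so no library was taken for a repeat.

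The test was two-sided limma 3.58.1 (R 4.3.3) with a trend on the deposited log2 values, 8562 genes of base mean 10 or more, group as the sole covariate, and Benjamini-Hochberg adjustment over all of them. Its prior had 182 degrees of freedom, that of the fit on recovered reads 144, and the libraries 2. The p-values and intervals thus rest mostly on the spread shared across genes. Fold changes, SE and 95% intervals came from limma on log2(normalised reads + 1) over 8559 genes, a scale that understates changes of low genes. An exact permutation test of 2 against 2 libraries cannot go below p = 0.333. Counting intervals cover counting error only.

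Exons are from GENCODE M21 (mm10), with 12570 genes matched by ID. The rule for naming took all 10 genes, their opposite-strand neighbours and, as none of the 22 tested of 28 further genes was called, the 2 of largest change. Riok1, Coprs, Mettl23, Chtop, Smn1, Jmjd6 and Mtap were named after their values were seen. The genes and lists were chosen with earlier results of these data known. Alternatives varied the abundance minimum, pseudocount, values tested, scaling, a block by letter and libraries.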

Additional observations from a re-analysis of the deposited data

How the results depend on the processing

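None of the 10 genes was called under any of 14 alternatives, nor was any further gene of arginine methylation with enough reads to test. A base mean of at least 40 left 5 of the 10 to test, and the authors' deposited table gives an adjusted p for 5. Over 135 alternative values for the 10 genes the lowest adjusted p was 0.370 (limma, Clns1a without DMSO A). In 6 genes the sign held throughout. The others changed sign with 1 library left out, with log2 fold changes from -0.13 to 0.47 for Prmt2, -0.39 to 0.24 for Prmt3, -0.58 to 0.063 for Prmt6 and -0.45 to 0.43 for Prmt9. The counts over all genes did depend on the setting, from 111 higher and 72 lower: 12 and 4 with no abundance minimum, 16 and 10 in the authors' deposited table, and 66 higher with scaling by library total (71 with voom, chosen after seeing the data); the cause was not tested. Leaving out each library, where the lone library of a group is assumed to vary like the other group, gave 42 to 178 higher and 21 to 76 lower. The median shift between scalings stayed under 0.1 on the log2 scale. edgeR and DESeq2 were not run on the recovered reads; limma voom was. The columns carry letters and not the labels' replicate numbers. A replicate block by letter, added after seeing the data, gave 133 higher and 94 lower genes. It called 0 of the 10 genes and 0 of the 22 further genes tested. The differences between A and B correlated across 8559 genes at 0.0377 between inhibitor and DMSO, so the letters were not taken to pair the libraries. Depth limits Wdr77, Prmt9 and Prmt2 most, at base means of 12.1, 12 and 21.4.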
